A study of Homo sapiens with 24 samples.

Results

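The SR splicing factors are described here through 10 genes: SRSF1, SRSF2, SRSF3, SRSF4, SRSF5, SRSF6, SRSF7, SRSF9, SRSF10 and SRSF11. They were chosen by name, as the bins of the count tables whose gene group carries one of these symbols, and are 10 of 13236 gene groups. A bin is a stretch of exon or intron that was counted on its own, and these genes hold 102 of the 164219 bins. Of the 4769 bins that the authors classed as detained introns, 3 lie in these genes, 1 in SRSF7 and 2 in SRSF11. Polyadenylated RNA was sequenced from HEK293T cells, a long-used line of human embryonic kidney origin. In one experiment OGT, the enzyme that attaches O-GlcNAc to proteins, was inhibited with 10 µM OSMI-2 for 2 h or 6 h. In the other OGA, the enzyme that takes O-GlcNAc off and whose gene is listed as MGEA5, was inhibited with 5 µM TMG for the same times. Each drug and time had DMSO-treated cells of its own as controls, the medium of all cells was renewed 3 h before treatment, and no gene was altered. There were 8 groups, with 2 libraries for OSMI-2 at 6 h and 3 for every other group. The labels do not say whether the libraries of a group came from separate cultures, so p-values measure the spread between these libraries, which may be technical.

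SR proteins bind RNA through RNA recognition motifs and help recruit the splicing machinery through a region rich in arginine and serine, which kinases of the CLK and SRPK families phosphorylate. Many SR genes limit their own protein by splicing in a poison exon, an exon with a premature stop codon that sends the transcript to nonsense-mediated decay. Others hold a detained intron, an intron left in transcripts that carry a poly(A) tail but are held in the nucleus. OGT adds O-linked N-acetylglucosamine to nuclear and cytosolic proteins and OGA removes it.

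The 23 libraries held 39465746 to 100161560 bin counts. Detained introns took 0.756% to 1.21% of the counts in the DMSO 6 h libraries of the OSMI-2 experiment, above every other library (0.232% to 0.669%); the cause was not tested. Library a of that group also stood apart from b and c in the slope of gene counts on transcript GC content (0.414 against 1.14 and 1.06 log2 units per 10 percentage points of GC). The HEK293T marker list, 7 of 7 genes in the tables, summed to 325 to 1029 CPM (counts scaled to library size), most of it from VIM. That sum moved with the 6 h OSMI-2 comparison, at 399.7 to 439 CPM in DMSO and 833 to 872 CPM with OSMI-2. It also differed between the controls, at 913 to 1029 CPM at 2 h in the OSMI-2 experiment and at 639.5 to 676 CPM at 2 h and 362 to 387 CPM at 6 h in the TMG experiment. The fibroblast sum was 8.57 to 14.1 CPM in DMSO and 23.1 to 24.9 CPM with OSMI-2 at 6 h, without overlap. The part of both sums in the results was not tested. Kidney tubule, fibroblast and blood markers summed to 6.40 to 16.0, 5.92 to 24.9 and 0 to 0.251 CPM, with 3 of 7, 2 of 5 and 2 of 5 genes in the tables, and 0 of 4 endothelial markers were in them. The gene counts of OGT did not pass with OSMI-2 at 2 h (0.57 on the log2 scale, SE 0.26) and fell by 1.85 (SE 0.33, adjusted p = 0.000346) at 6 h in edgeR's quasi-likelihood test. MGEA5 fell by 1.93 (SE 0.33, adjusted p = 0.000136) with OSMI-2 at 6 h in the same test. Between the DMSO controls of that experiment OGT rose by 1.81 (SE 0.29, adjusted p = 0.000109) from 2 h to 6 h in edgeR. MGEA5 changed there by 0.53 (SE 0.26, adjusted p = 0.151 in edgeR). With TMG at 6 h MGEA5 rose by 0.72 (SE 0.06, adjusted p = 6.0e-06) and OGT fell by 0.48 (SE 0.07, adjusted p = 0.00164) in edgeR, and at 2 h neither passed.

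The sequences below are shown because 7 of the 14 exon bins that passed after 6 h of OSMI-2 are exons of decay transcripts, and for 4 of the 14 a premature stop was read from the transcript. Bins were matched to GENCODE 29 exons by the spacing of exon ends within each gene. Of the 102 bins, 14 lay in transcripts annotated for nonsense-mediated decay and in no consensus coding sequence (CCDS) transcript, and these are called decay-only exons here. SRSF5_E006 and SRSF11_E009 of the 14 also overlap a transcript annotated as protein coding outside CCDS. Each line gives the reading frame of such an exon up to its stop codon, from the GENCODE 29 transcript, 5′ to 3′, with the stop codon in capitals.

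SRSF3_E004: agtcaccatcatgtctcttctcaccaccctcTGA

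SRSF4_E006: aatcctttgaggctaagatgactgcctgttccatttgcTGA

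SRSF4_E009: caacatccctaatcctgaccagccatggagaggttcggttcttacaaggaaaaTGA

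SRSF5_E006: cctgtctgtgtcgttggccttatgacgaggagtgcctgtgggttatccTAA

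SRSF6_E003: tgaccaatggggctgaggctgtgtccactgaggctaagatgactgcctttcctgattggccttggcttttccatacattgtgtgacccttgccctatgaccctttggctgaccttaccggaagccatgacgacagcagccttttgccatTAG

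SRSF7_E007: ggcagaaaatttgagacggTGA

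SRSF7_E008: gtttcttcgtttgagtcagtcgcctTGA

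SRSF11_E009: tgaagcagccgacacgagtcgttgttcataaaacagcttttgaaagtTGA

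With the stop codon included, the reading frame ran for 22 bases in SRSF7_E007 and 152 bases in SRSF6_E003, with the other 6 exons shown in between. A stop was also read for the decay-only exon SRSF1_E007, at 198 bases, which is not shown. The stretches of SRSF4_E006 and SRSF6_E003 share a run of 20 bases, tgaggctaagatgactgcct. In the hg19 positions of the tables, SRSF3_E004 spans 456 bases at chr6:36567598-36568053 (plus strand) and SRSF4_E006 spans 195 bases at chr1:29486376-29486570 (minus strand). SRSF5_E006 spans 532 bases at chr14:70236228-70236759 (plus strand), SRSF6_E003 268 bases at chr20:42087793-42088060 (plus strand) and SRSF7_E007 276 bases at chr2:38976040-38976315 (minus strand). The authors classed 1 bin of the 10 genes as a cassette exon, SRSF7_E002 of 36 bases, which lies in the coding sequence, and SRSF7_E007 and SRSF7_E008 as mutually exclusive exons. SRSF2_E004 (104 bases at chr17:74731854-74731957, minus strand) has the ends of an exon of a decay transcript but also lies in an exon of a CCDS transcript. SRSF2 and SRSF9 share exon bases with MFSD11 and GATC on the opposite strand, and SRSF1 with an annotated gene on its own strand. The use of strand in counting is not given in the sources used here, so the values of these 3 genes are uncertain to that extent.

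All 10 genes were detected in every library. Levels between genes are compared as CPM per kilobase of counted bins on a scale common to the 23 libraries. This corrects for length only in part, as counts did not scale with bin length. In DMSO 2 h library a of the TMG experiment, SRSF3_E007 of 9 bases took 7.81% of its gene's counts and SRSF2_E002 of 6 bases 6.69%. The length also holds little used bins, such as SRSF3_E004 with 456 of the 1199 bases of SRSF3. The order of genes is approximate to that extent. In the DMSO 2 h libraries of the TMG experiment SRSF3, which acts in splicing and mRNA export, was highest at 473 ± 27.2 CPM per kb (mean ± SD, n = 3). SRSF2 followed at 297 ± 11.6, SRSF9 at 199 ± 8.01, SRSF1 at 175 ± 4.92 and SRSF7 at 151 ± 1.13 CPM per kb. Below them came SRSF11 (109.5 ± 1.94), SRSF6 (94.2 ± 2.97), SRSF5 (80.1 ± 2.16), SRSF10 (36.7 ± 1.21) and SRSF4 (35.3 ± 0.854), and in that group SRSF10 and SRSF4 were the only neighbours whose libraries overlapped.

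The DMSO 2 h libraries of the OSMI-2 experiment had another order. SRSF9 was highest at 406 ± 30.9 CPM per kb, followed by SRSF2 at 322 ± 27.3 and SRSF3 at 290.3 ± 67.4, the last 2 with overlapping libraries. SRSF1 (94.2 ± 17.1) overlapped with SRSF7 (92.2 ± 9.13), and SRSF6 (44.7 ± 2.53) with SRSF4 (41.3 ± 2.11), while SRSF5 at 58.8 ± 2.07 stood between these pairs. SRSF11 (27.3 ± 1.34) and SRSF10 (11.2 ± 0.599) were lowest. The libraries of the experiments also differed in GC slope (0.811 to 1.13 against -0.305 to -0.257 log2 units per 10 points in these groups), and SRSF10 and SRSF7 have the lowest GC content of the 10 genes (41.0% and 41.6%). Experiment and library composition cannot be told apart, so no level was tested between experiments.

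**Figure D1:**
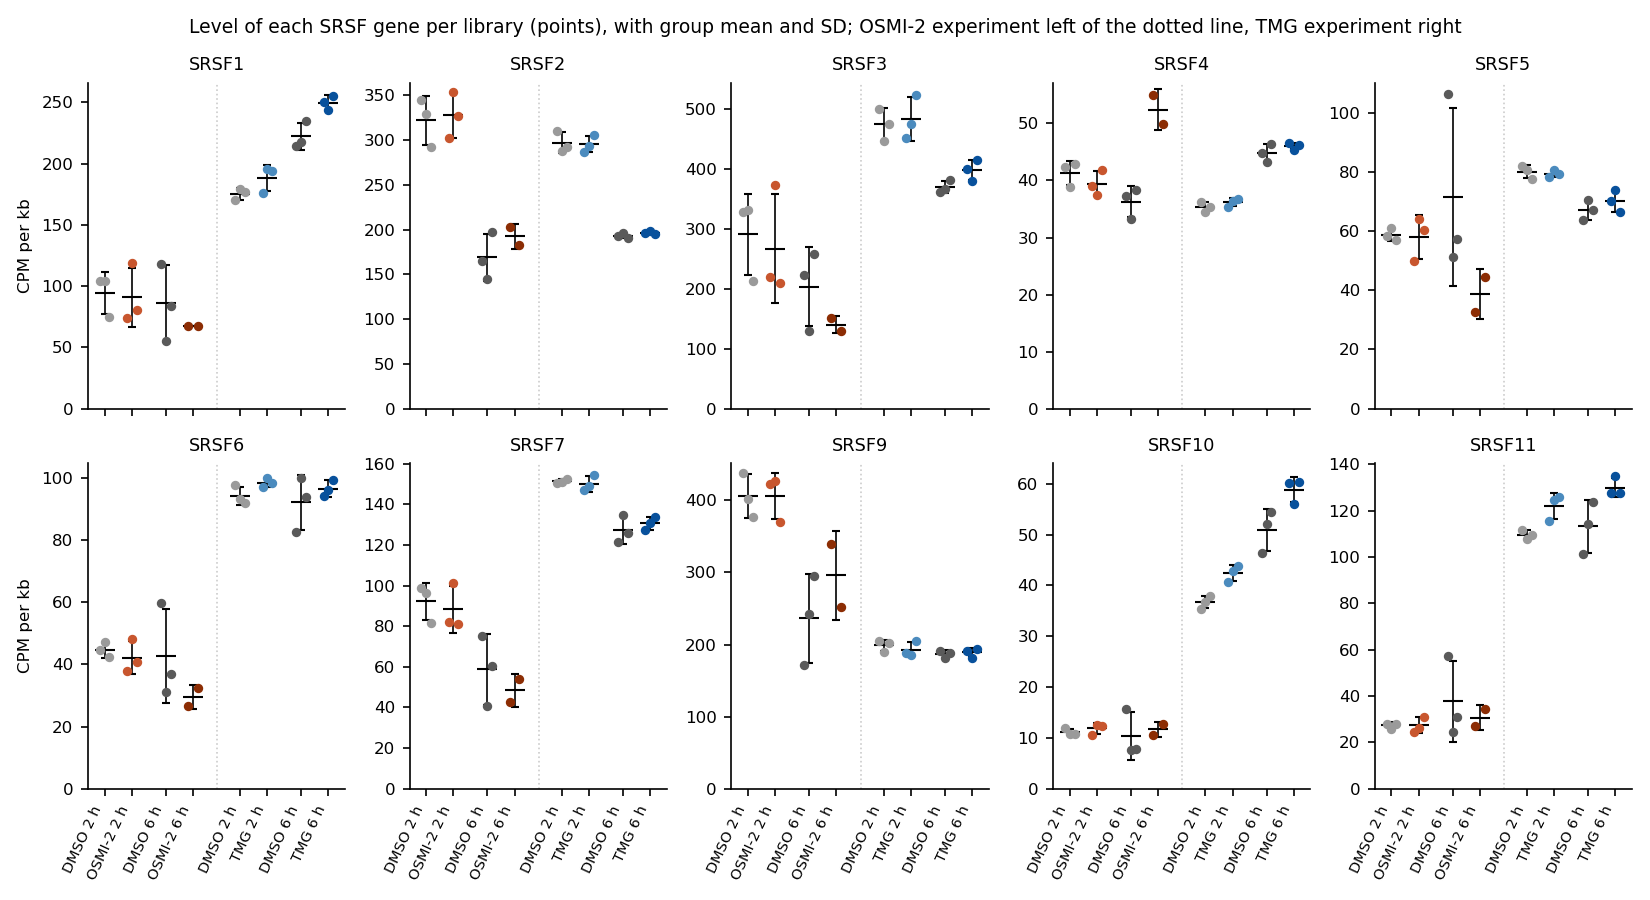
Level of each of the 10 SR genes in CPM per kilobase (vertical axis) in the 8 groups. Points are libraries and bars the group mean and SD; SRSF10 has a mean of 11.2 in the DMSO 2 h libraries of the OSMI-2 experiment and 36.7 in those of the TMG experiment.

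With OSMI-2 for 2 h, 0 of 10 SR genes passed an adjusted p of 0.05 in edgeR's quasi-likelihood test, 0 had an unadjusted p under 0.05, and 0% of the 12343 genes tested passed (160 had an unadjusted p under 0.05). DESeq2's Wald test called 0 SR genes. The log2 changes ran from -0.20 (SRSF3, SE 0.30) to 0.00 (SRSF10, SE 0.16), with a median of -0.11 beside -0.01 over all genes. SRSF3 stood at 337, 344 and 185 CPM in DMSO libraries a, b and c and at 200.5, 374 and 179 CPM in the OSMI-2 libraries.

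After 6 h of OSMI-2, SRSF5, first described as an insulin-induced gene, was the 1 SR gene of 10 that passed, beside 4.94% of the 12484 genes tested. It stood at 343, 165 and 180.3 CPM in the DMSO libraries and at 91.9 and 123 CPM with OSMI-2, so both treated libraries were below all controls. The libraries are of bulk RNA, in which less RNA per cell and fewer cells with that RNA cannot be told apart. The log2 change was -1.09 (SE 0.33, adjusted p = 0.0320) in edgeR's quasi-likelihood test. SRSF6, a relative of SRSF4 and SRSF5, was also lower in both OSMI-2 libraries (39.9 and 47.4 CPM) than in the DMSO libraries (102, 53.5 and 61.7 CPM), but its change of -0.73 (SE 0.31) had an adjusted p of 0.131 in edgeR. SRSF3 stood at 301, 175 and 339 CPM against 177 and 149.9 CPM, with overlap, and changed by -0.73 (SE 0.33, adjusted p = 0.155) in edgeR. SRSF4 was above its controls in both OSMI-2 libraries, at 151 and 135 CPM against 118, 105 and 118 CPM, with a change of 0.33 (SE 0.30, adjusted p = 0.527) in edgeR. The median change of the 10 genes was -0.49, beside 0.15 over all genes. Other scalings moved this median by 0.17 (median of ratios, where SRSF2 and SRSF10 changed sign) and by -0.24 (factors from genes alone, where SRSF9 changed sign).

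DMSO library a was the highest of the 5 libraries for SRSF1, SRSF5, SRSF6, SRSF7, SRSF10 and SRSF11. For SRSF10 the DMSO libraries a, b and c stood at 60.0, 28.6 and 28.8 CPM, and for SRSF11 at 192, 82.5 and 101 CPM. Without library a SRSF5 still fell, by 0.64 (adjusted p = 0.0121 in edgeR). SRSF4 and SRSF10 then passed as higher with OSMI-2, at 0.41 (adjusted p = 0.0373) and 0.46 (adjusted p = 0.0223) in edgeR. These 3 calls of 10 stand beside 42.4% of all genes called without library a. The call of SRSF5 was lost with median-of-ratios scaling (adjusted p = 0.113), with DESeq2 (adjusted p = 0.0568) and without any 1 of the other 4 libraries. In edgeR the adjusted p was 0.0693 and 0.0916 without DMSO b and c, and 0.633 and 0.773 without OSMI-2 a and b.

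With TMG at 2 h SRSF10, known as a splicing repressor when dephosphorylated, rose by 0.17 (SE 0.05, adjusted p = 0.0298) in edgeR, from 139, 141 and 144 CPM to 155, 159.8 and 163 CPM. It was 1 of 10 SR genes to pass, beside 7.91% of the 12361 genes tested. At 6 h all TMG libraries of SRSF10 were again above the controls (214, 201 and 214 CPM against 177, 188 and 194 CPM), with a change of 0.17 (SE 0.06, adjusted p = 0.0914) in edgeR. SRSF11, which binds U2 auxiliary factor, was above its controls in every TMG library at both times, with changes of 0.11 (SE 0.05, adjusted p = 0.176) at 2 h and 0.16 (SE 0.06, adjusted p = 0.115) at 6 h in edgeR. With factors from genes alone SRSF3 and SRSF4 changed sign at 2 h and SRSF2, SRSF4, SRSF7 and SRSF9 at 6 h. At 6 h 0 of 10 genes passed in edgeR and 0 in DESeq2, 3 had an unadjusted p under 0.05, and 6.03% of the 12103 genes tested passed. The call of SRSF10 at 2 h was lost in the fit of all 23 libraries and with the GC slope as a covariate (0.21 and 0.11, the latter with an adjusted p of 0.749 in edgeR). Under each of these settings 0 of all genes passed, beside 978 in the main fit, so the loss was not particular to SRSF10. It was also lost without any 1 DMSO library or without TMG b or c (adjusted p of 0.0576 to 0.143 in edgeR).

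The difference between the drugs' effects passed for 0 of 10 SR genes at 2 h (0% of all genes; 0 SR genes and 1025 of all genes had an unadjusted p under 0.05) and for 0 of 10 at 6 h (19.9% of all genes) in edgeR. At 6 h 2 SR genes had an unadjusted p under 0.05, SRSF5 (-0.95, SE 0.35, adjusted p = 0.0616) and SRSF4 (0.49, SE 0.21, adjusted p = 0.101), beside 4628 of all genes. This fit scaled the groups of both experiments together and took a shared spread over them. Its SE can thus lie below that of the OSMI-2 effect alone (for SRSF4 0.21 against 0.30). Its values are also not the plain difference of the separate effects. DESeq2 called 3 SR genes, beside 5948 of 13186 over all genes. Without DMSO library a 5 genes passed that test in edgeR, all with the higher effect for OSMI-2, beside 75.0% of all genes. Median-of-ratios scaling moved the median of the 10 differences at 6 h by 0.33, and SRSF7 and SRSF10 changed sign. The OSMI-2 effect at 6 h minus that at 2 h passed for 0 of 10 genes in edgeR (0.111% of all genes), with 1 gene, SRSF5, at an unadjusted p under 0.05, and DESeq2 called 0.

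**Figure D2:**
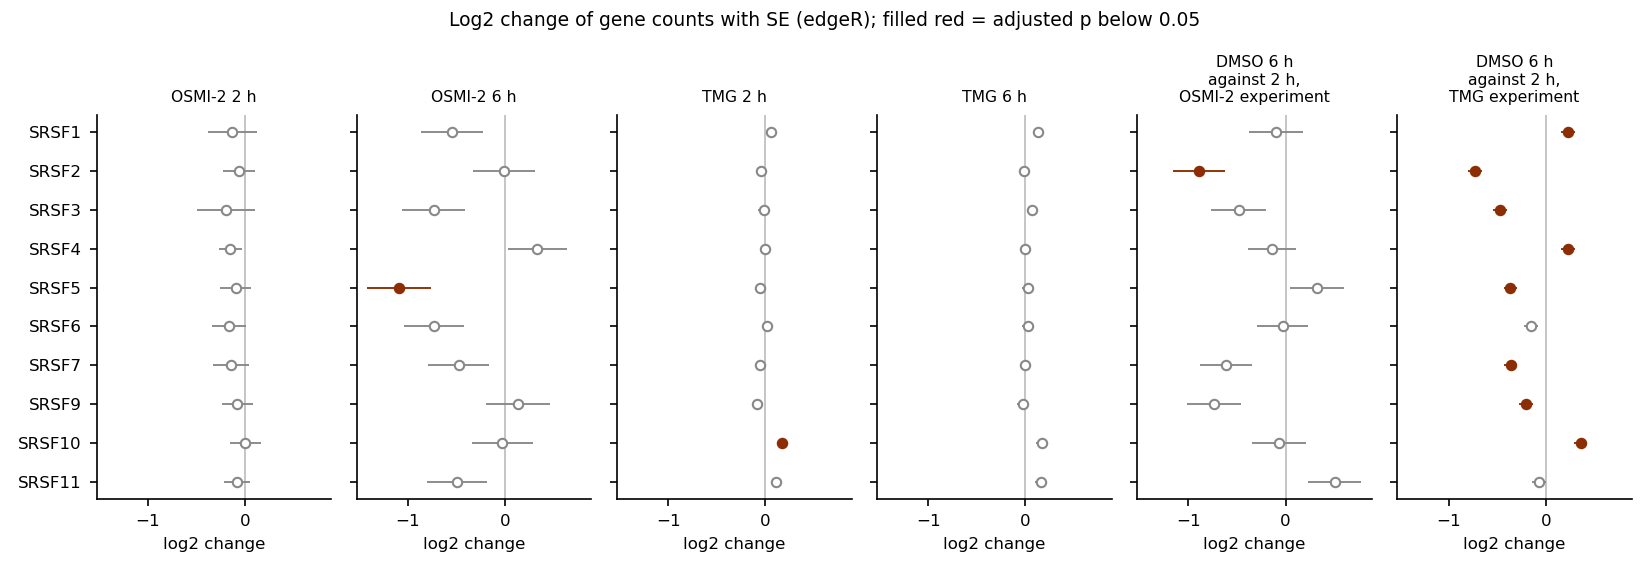
Log2 change of gene counts (horizontal axis) with its SE for the 10 SR genes, 1 panel per comparison; filled red points have an adjusted p under 0.05. SRSF5 is filled for OSMI-2 at 6 h, SRSF10 for TMG at 2 h, and 8 genes for DMSO 6 h against 2 h in the TMG experiment.

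The DMSO controls themselves differed between 6 h and 2 h. In the TMG experiment 3 SR genes rose and 5 fell, 8 of 10, beside 45.9% of the 12294 genes tested (16.3% higher, 29.6% lower). SRSF2, which also acts in transcription pause release, fell by 0.73 (SE 0.07, adjusted p = 1.5e-08) in edgeR, from 544, 497 and 499.7 CPM to 323, 308 and 297 CPM. SRSF3 fell by 0.47, SRSF5 by 0.36, SRSF7 by 0.36 and SRSF9 by 0.20, while SRSF10 rose by 0.36, SRSF1 by 0.23 and SRSF4 by 0.23. The call of SRSF4 was lost without 2 h library b or c, and that of SRSF9 without 2 h library a or c or 6 h library b or c (adjusted p of 0.0556 to 0.107 in edgeR). In the OSMI-2 experiment 1 of 10 passed, beside 18.5% of the 12343 genes tested: SRSF2 fell by 0.89 (SE 0.27, adjusted p = 0.0209) in edgeR, from 526, 506 and 406 CPM to 250.1, 226 and 301 CPM. SRSF9 was lower in all 3 DMSO 6 h libraries of that experiment (231, 334 and 399 CPM) than at 2 h (593, 549.7 and 465 CPM), with an adjusted p of 0.0575 in edgeR. Without library a 4 genes passed, all lower at 6 h, beside 37.2% of all genes: SRSF2, SRSF7, SRSF9 and SRSF10. The call of SRSF2 was lost without DMSO 2 h library a or b or 6 h library b (adjusted p of 0.111 to 0.181 in edgeR). DESeq2 called 3 SR genes (3189 of 13171 over all genes) and median-of-ratios scaling gave 2 (2984 of 12341).

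SRSF11 holds 2 detained introns. SRSF11_E005 (2001 bases, chr1:70694239-70696239) and SRSF11_E007 (476 bases, chr1:70696302-70696777) lie on the plus strand on either side of SRSF11_E006, a bin of 62 bases outside CCDS. SRSF11_E005 took 9.69%, 9.27% and 10.1% of the gene's counts in the DMSO 6 h libraries of the OSMI-2 experiment and 4.94% and 4.07% with OSMI-2. SRSF11_E007 took 3.41%, 2.77% and 3.54% in the same controls and 0.982% and 1.41% with OSMI-2. Treated and control libraries did not overlap for either intron.

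Relative to the gene, on the log2 scale, SRSF11_E005 fell by 1.11 (SE 0.23, adjusted p = 4.7e-06) and SRSF11_E007 fell by 1.44 (SE 0.29, adjusted p = 1.6e-06) in limma's test. Beside them 89.3% of the 4616 introns tested passed, with a median change of -1.63, so a fall of this size was the rule among introns. Both calls held in each of the 10 alternatives run, with values of -1.25 to -0.97 and -1.68 to -1.19. Without DMSO library a they were -1.11 and -1.40. The mean share of SRSF11_E005 was 4.51% with OSMI-2 at 6 h, 4.24% with DMSO at 2 h and 4.76% with OSMI-2 at 2 h, and it was the DMSO 6 h group that stood at 9.70%.

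SRSF7_E006, the detained intron of SRSF7 (244 bases, chr2:38975796-38976039, minus strand), adjoins the decay-only exon SRSF7_E007. Its share was 2.83%, 2.03% and 1.30% in the DMSO 6 h libraries and 1.84% and 1.93% with OSMI-2. The groups overlapped, and the change relative to the gene was -0.05 (SE 0.28, adjusted p = 0.869) in limma (0.21 without DMSO library a). As counts, all 3 introns passed as lower in edgeR (-1.62 for SRSF11_E005, -1.91 for SRSF11_E007 and -0.64 for SRSF7_E006), beside 86.9% of the 4677 introns tested. The call of SRSF7_E006 was lost without either OSMI-2 library (adjusted p = 0.261 and 0.0567 in edgeR) and without DMSO library a (0.04, adjusted p = 0.903 in edgeR). With scaling on introns alone SRSF7_E006 was higher (0.87, adjusted p = 0.0224 in edgeR) and the calls of both SRSF11 introns were lost (-0.12 and -0.43).

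OSMI-2 for 2 h moved 0 of 3 introns in limma (0.0643% of all introns) or edgeR (0.129%), 0 had an unadjusted p under 0.05 in either, and DESeq2 called 0. The changes relative to the gene were 0.17 (SRSF11_E005), -0.01 (SRSF11_E007) and -0.06 (SRSF7_E006). With TMG for 2 h SRSF11_E005 was at 6.19%, 6.68% and 5.80% of the gene, against 5.33%, 5.52% and 4.83% in DMSO. SRSF11_E007 was at 1.90%, 2.28% and 1.84% against 1.53%, 1.63% and 1.63%. Every treated library lay above every control for both introns.

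Relative to the gene SRSF11_E005 rose by 0.25 (SE 0.08, adjusted p = 0.0455) with TMG at 2 h in limma, beside 9.80% of the 4031 introns tested and a median of 0.30 over them. SRSF11_E007 changed by 0.32 (SE 0.11, adjusted p = 0.0617) in limma. As counts both rose in edgeR, by 0.36 (SE 0.08, adjusted p = 0.00350) and 0.44 (SE 0.11, adjusted p = 0.00824), beside 9.81% of 4056 introns. All 3 calls were lost in the fit of all 23 libraries and with the GC slope as a covariate, and both calls from counts with scaling on introns alone (0.07 and 0.15). Over all introns the first 2 settings left 6 and 2 calls relative to the gene, beside 395 in the main fit. As counts they left 3 and 7, beside 398. The call of SRSF11_E005 relative to its gene was also lost without DMSO a or c or TMG a or b, with an adjusted p of up to 0.223 in limma, and in the authors' deposited table its adjusted p was 0.230. At 6 h of TMG 0 of 3 introns passed in limma (0.191% of all introns) or edgeR (0.190%), with 1 at an unadjusted p under 0.05 in each, and DESeq2 called 0. SRSF7_E006 then stood at 2.82%, 2.90% and 2.63%, against 1.97%, 2.52% and 2.61% in its controls, with a change of 0.25 (SE 0.17, adjusted p = 0.872) in limma.

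At 6 h the OSMI-2 effect minus the TMG effect was -1.40 (SE 0.24, adjusted p = 6.9e-06) for SRSF11_E005 and -1.54 (SE 0.30, adjusted p = 3.2e-05) for SRSF11_E007 in limma, beside 85.5% of all introns and a median of -1.81. For SRSF7_E006 it was -0.30 (SE 0.31, adjusted p = 0.369). Without DMSO 6 h library a the differences were -1.40, -1.50 and -0.03, and the same 2 introns passed. At 2 h 0 of 3 passed (0.0781% of all introns), and 0 had an unadjusted p under 0.05 in limma. The OSMI-2 effect at 6 h differed from that at 2 h for both SRSF11 introns, by -1.28 (SE 0.25, adjusted p = 0.000263) and -1.42 (SE 0.38, adjusted p = 0.00311) in limma, beside 72.7% of all introns. Without DMSO 6 h library a both passed at -1.28 and -1.38.

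In the DMSO controls of the OSMI-2 experiment, 6 h against 2 h, all 3 introns rose relative to the gene in limma, by 1.20 (SRSF11_E005), 1.80 (SRSF11_E007) and 0.89 (SRSF7_E006), beside 89.0% of all introns and a median of 1.67. Without DMSO 6 h library a all 3 passed, at 1.20, 1.76 and 0.63. As counts both SRSF11 introns rose in edgeR (1.71 and 2.34), beside 90.3% of all introns, and SRSF7_E006 did not pass (0.41 (SE 0.26, adjusted p = 0.128)). Without library a these counts changed by 1.30, 1.87 and -0.19, with both SRSF11 introns past the threshold. With scaling on introns alone neither SRSF11 intron passed, and SRSF7_E006 was lower (-1.28). In the TMG experiment SRSF7_E006 rose by 0.82 (SE 0.17, adjusted p = 0.000139) in limma, beside 19.6% of all introns, and by 0.47 (SE 0.17, adjusted p = 0.0337) as counts in edgeR, beside 21.9%. The latter call was lost with DESeq2 (adjusted p = 0.0626), with scaling on introns alone and without any 1 library but 6 h library a. The SRSF11 introns changed there by 0.05 (SE 0.14, adjusted p = 0.839) and 0.29 (SE 0.18, adjusted p = 0.232).

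**Figure D3:**
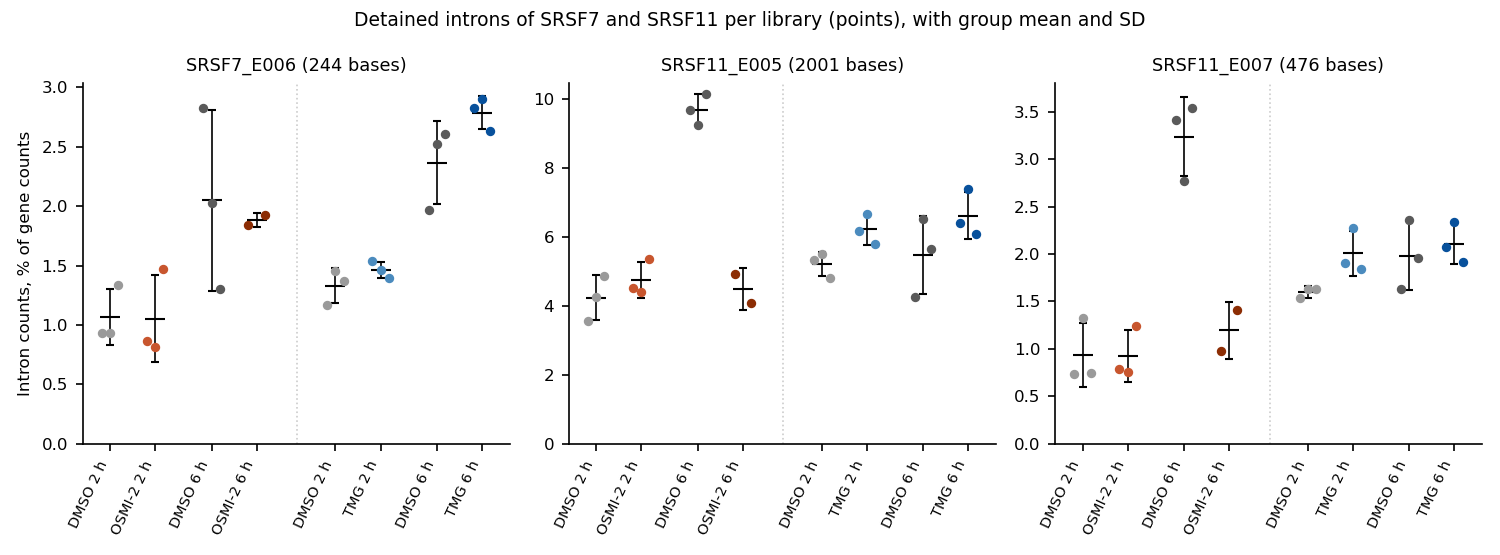
Counts of the 3 detained introns as a percent of the counts of their gene (vertical axis), per library (points), with group mean and SD. SRSF11_E005 has a mean of 9.70% in the DMSO 6 h libraries of the OSMI-2 experiment and means of 4.24% to 6.63% in the other 7 groups.

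SRSF4 encodes an SR protein with a long arginine- and serine-rich region, and 4 of its 12 bins are decay-only exons. SRSF4_E006 lies between 2 coding bins, and SRSF4_E009, SRSF4_E010 and SRSF4_E011 lie together with SRSF4_E008, a bin outside CCDS, between the next 2. SRSF4_E006 took 1.35%, 1.25% and 1.02% of the gene's counts in the DMSO 6 h libraries of the OSMI-2 experiment and 0.332% and 0.397% with OSMI-2. SRSF4_E009 took 1.86%, 1.56% and 1.26% and then 0.415% and 0.537%. At 2 h SRSF4_E006 took 0.288%, 0.453% and 0.479% in DMSO and 0.294%, 0.455% and 0.730% with OSMI-2. It was thus the DMSO 6 h group that stood apart for SRSF4_E006. For all 4 exons both OSMI-2 libraries of 6 h lay below all 3 of their controls. The share of all exon bins in this order is not given here, and the 4 bins share the counts of their gene.

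Relative to the gene SRSF4_E006 fell by 1.69 (SE 0.18, adjusted p = 0.000257), SRSF4_E009 by 1.69, SRSF4_E010 by 1.69 and SRSF4_E011 by 1.43 in limma. SRSF4_E008 fell by 2.59 (SE 0.25, adjusted p = 0.000137), at 31 to 36 counts in DMSO and 5 to 9 with OSMI-2. It thus reached the mean count of 10 needed for the test through the DMSO libraries. These 5 calls held in every alternative run. The 7 CCDS bins of the gene changed by -0.01 to 0.29, and 0 of them passed. With TMG at 6 h the 4 decay-only exons changed by 0.30, 0.30, 0.42 and 0.34, with an adjusted p of 0.859 or more in limma. The OSMI-2 effect minus the TMG effect was -1.99 (SE 0.24, adjusted p = 0.000715) for SRSF4_E006 in limma, and -1.99, -2.11 and -1.77 for the others.

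SRSF10 had 2 bins that fell and 1 that rose with OSMI-2 at 6 h. SRSF10_E009 (137 bases, outside CCDS) fell by 1.88 (SE 0.28, adjusted p = 0.00280) in limma, from 1.88%, 1.07% and 1.44% of the gene to 0.296% and 0.421%. SRSF10_E002, 233 bases that adjoin the last bin of the gene, fell by 1.15 (SE 0.17, adjusted p = 0.00278). The first bin, SRSF10_E012, rose by 0.47 (SE 0.10, adjusted p = 0.0302) in limma, a call lost without DMSO library a (0.40, adjusted p = 0.0833). The decay-only exon SRSF10_E010 changed by -0.54 (SE 0.20, adjusted p = 0.287).

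In SRSF11 the decay-only exons that follow the detained introns fell too. SRSF11_E009 fell by 0.78 (SE 0.11, adjusted p = 0.00195) in limma, from 2.68%, 2.66% and 2.42% of the gene to 1.41% and 1.60%, and SRSF11_E008 fell by 0.79 (SE 0.15, adjusted p = 0.0134). SRSF11_E006, between the introns, fell by 0.67 (SE 0.15, adjusted p = 0.0358), a call lost without any 1 of the 5 libraries (adjusted p = 0.143 in limma without DMSO library a).

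SRSF5_E006 took 13.9%, 13.1% and 13.9% of the SRSF5 counts in the controls and 8.30% and 9.06% with OSMI-2, and relative to the gene it fell by 0.65 (SE 0.05, adjusted p = 5.2e-05) in limma. SRSF2_E004 went from 3.90%, 2.60% and 2.51% to 1.30% and 1.62% and fell by 1.01 (SE 0.16, adjusted p = 0.00382). SRSF9_E003 (143 bases, outside CCDS) fell by 1.75 (SE 0.38, adjusted p = 0.0316), from 0.581%, 0.208% and 0.192% to 0.0707% and 0.0951%. Without DMSO library a, which was highest for SRSF9_E003, its change was -1.24 (adjusted p = 0.0213 in limma).

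The decay-only exons of SRSF3, SRSF6 and SRSF7 did not pass. SRSF3_E004 stood at 1.43%, 1.40% and 0.791% of the gene in the controls and at 1.36% and 1.80% with OSMI-2, with overlap and a change of 0.43 (SE 0.21, adjusted p = 0.477) in limma. SRSF6_E003 was below its controls in both treated libraries (8.92% and 9.29% against 13.4%, 11.7% and 9.79%), with a change of -0.34 (SE 0.11, adjusted p = 0.170). SRSF7_E007 stood at 3.62%, 3.14% and 2.03% against 2.17% and 2.75%, with overlap, and changed by -0.22 (SE 0.19, adjusted p = 0.730); SRSF7_E008 changed by -0.24 (SE 0.18, adjusted p = 0.683). The cassette exon SRSF7_E002 stood at 7.35%, 7.27% and 6.97% against 7.58% and 6.75% and changed by -0.01 (SE 0.06, adjusted p = 0.981).

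In all, 14 of the 97 SR exon bins tested passed after 6 h of OSMI-2, 13 lower and 1 higher, in 6 genes, beside 2.28% of the 126167 exon bins tested (1.79% lower, 0.487% higher). Of 12 decay-only exons tested 7 fell and 0 rose (median -0.71). Of 5 bins outside CCDS 4 fell (median -1.75), and of 80 CCDS bins 2 fell and 1 rose (median 0.01, beside 0.02 over all exon bins). Among the 4 is SRSF4_E008, which reached the mean count needed through the DMSO libraries. Without OSMI-2 library a the calls of SRSF10_E009 (adjusted p = 0.0521 in limma) and SRSF2_E004 (0.0914) were lost, and without b that of SRSF11_E008 (0.180). The calls of SRSF9_E003, SRSF10_E012 and SRSF11_E006 were lost without either of them (adjusted p of 0.120 to 0.347 in limma). Bins of a gene share its counts, and SRSF4 holds 4 of the 7 decay-only exons that fell. Without DMSO library a 12 bins fell and 0 rose, beside 1.97% of all exon bins. The 4 SRSF4 decay-only exons were then at -1.61, -1.55, -1.55 and -1.31, SRSF4_E008 at -2.54, SRSF10_E002 and SRSF10_E009 at -1.06 and -1.70, SRSF11_E008 and SRSF11_E009 at -0.84 and -0.75, SRSF5_E006 at -0.63 and SRSF2_E004 at -0.81. Without OSMI-2 library a 9 fell. The authors' deposited table called 19 SR exon bins, 14 lower and 5 higher, beside 4.08% of the 147825 exon bins with an adjusted p there. From DMSO at 2 h to these DMSO 6 h libraries, 11 of the 12 decay-only exons tested rose. The same DMSO 6 h libraries had the highest share of detained introns, and the part of that share in these results was not tested.

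**Figure D4:**
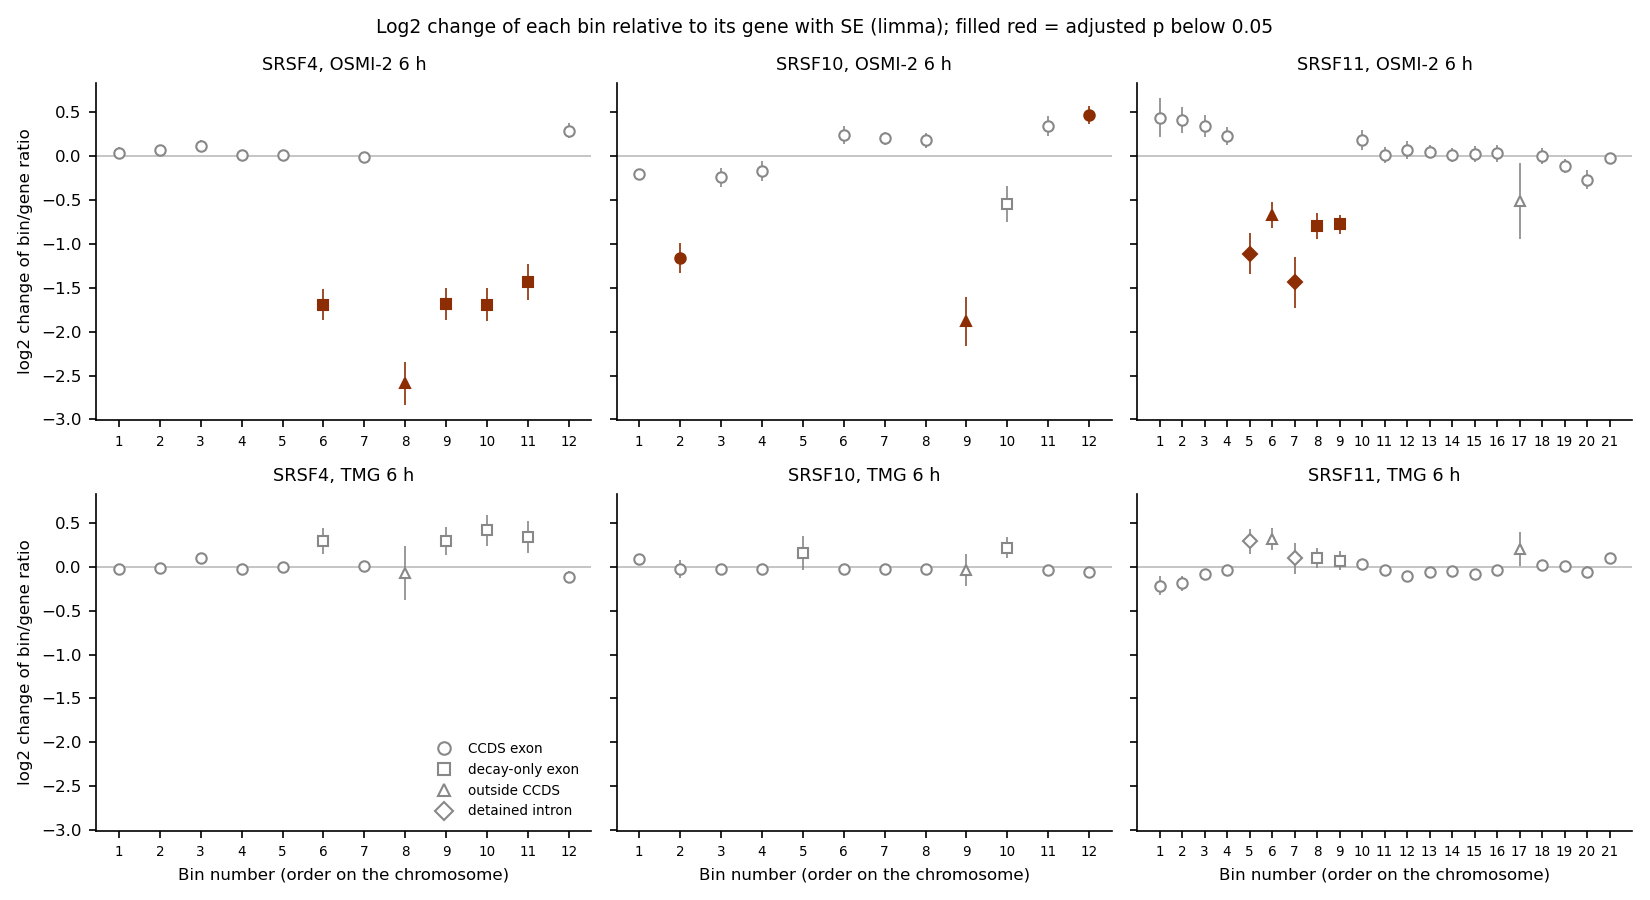
Log2 change of each bin relative to its gene (vertical axis) with SE, by bin in chromosome order, for SRSF4, SRSF10 and SRSF11 with OSMI-2 (top) and TMG (bottom) at 6 h; symbols give the bin class and filled red points have an adjusted p under 0.05. The decay-only exons of SRSF4 lie at -1.69 to -1.43 with OSMI-2 and at 0.30 to 0.42 with TMG.

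OSMI-2 for 2 h called 0 of 94 SR exon bins in limma (0% of 116720), with 4 SR bins and 3685 of all bins at an unadjusted p under 0.05, and the authors' deposited table called 0. TMG for 2 h called 1 of 98, beside 0.0173% of 132836. That bin, SRSF1_E006 (185 bases, in CCDS), went from 12.1%, 12.1% and 11.7% of the gene to 10.5%, 10.3% and 10.5% and fell by 0.20 (SE 0.03, adjusted p = 0.0295) in limma. The call was lost in 7 of the 11 alternatives run, and the authors' deposited table called 8 SR bins, beside 0.140% of the exon bins with an adjusted p there. At 6 h of TMG 0 of 99 passed in limma (0.00934% of 128487), with 22 SR bins and 7248 of all bins at an unadjusted p under 0.05, and the authors' deposited table called 0. The change was above 0 for 13 of 14 decay-only exons at 6 h (median 0.17) and for 11 of 13 at 2 h (median 0.13), beside medians of 0.00 and 0.00 over all exon bins, and none of them passed. Over all detained introns the medians relative to the gene were 0.17 at 6 h and 0.30 at 2 h. Bins of a gene share its counts and SRSF4 holds 4 of the 14, so these signs are not independent. SRSF5_E006 for example was at 8.98%, 9.01% and 8.81% with TMG at 2 h against 8.15%, 7.84% and 7.40%, with no overlap and a change of 0.20 (SE 0.04, adjusted p = 0.142) in limma.

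At 6 h the OSMI-2 effect minus the TMG effect passed for 15 of 98 exon bins in limma, 13 lower and 2 higher, beside 1.29% of all exon bins (0.967% lower, 0.326% higher). Of the 15, 7 were decay-only exons, in SRSF4, SRSF5, SRSF10 (SRSF10_E005, -2.11 (SE 0.40, adjusted p = 0.0149)) and SRSF11. SRSF10_E005 had 7 to 22 counts in the DMSO 6 h libraries and 1 to 6 with OSMI-2, too few to be tested with OSMI-2 alone, and it reached the mean count of 10 in this comparison through the TMG experiment (25 to 44 counts). Without DMSO 6 h library a 13 bins passed, beside 1.47% of all exon bins, and the calls of SRSF11_E006 (adjusted p = 0.0546) and SRSF11_E009 (0.0593) were lost in limma. The 4 SRSF4 decay-only exons were then at -1.91, -1.85, -1.97 and -1.65. The difference did not pass for SRSF3_E004 (0.30 (SE 0.26, adjusted p = 0.719)), SRSF6_E003 (-0.49 (SE 0.16, adjusted p = 0.174)) or SRSF7_E007 (-0.37 (SE 0.23, adjusted p = 0.579)) in limma. At 2 h 0 of 98 passed (0% of all exon bins), with 13 SR bins and 6544 of all bins at an unadjusted p under 0.05. The OSMI-2 effect at 6 h minus that at 2 h passed for 1 bin, SRSF4_E008 (-3.70 (SE 0.61, adjusted p = 0.0140) in limma), beside 0.474% of all exon bins. Without DMSO 6 h library a it was -3.66 (adjusted p = 0.0476 in limma). Without either OSMI-2 6 h library it did not pass (adjusted p = 0.102 and 0.0536). It had 1 to 6 counts in the DMSO 2 h libraries and 8 to 14 with OSMI-2 at 2 h, too few to be tested at 2 h alone. It reached the mean count of 10 in this comparison through the DMSO 6 h libraries (31 to 36 counts), so the call rests on the group where it is high.

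Between the 2 h and 6 h controls of the TMG experiment, SRSF2_E004 went from 2.06%, 2.14% and 2.08% of the gene to 3.90%, 5.33% and 5.02%, a rise of 1.17 (SE 0.08, adjusted p = 3.5e-07) in limma, while the SRSF2 gene fell. SRSF5_E006 went from 8.15%, 7.84% and 7.40% to 12.4%, 15.0% and 13.6% (0.81 (SE 0.06, adjusted p = 3.8e-07)). SRSF3_E004 went from 1.21%, 1.36% and 1.19% to 2.27%, 2.50% and 2.17% (0.88 (SE 0.07, adjusted p = 8.7e-07)). In these 3 genes the ratio of bin to gene rose where the gene fell, and so it did in SRSF7, where SRSF7_E007 rose by 0.90 and SRSF7_E008 by 0.85. The gene is the denominator, so its fall raises this ratio and its rise lowers it. Raw counts went from 531, 597 and 482 to 601, 747 and 657 for SRSF2_E004. They went from 1056, 1166 and 870 to 1206, 1449 and 1196 for SRSF5_E006, and from 401, 469 and 359 to 522, 523 and 453 for SRSF3_E004. The counts of these bins alone were not tested. SRSF6_E003 rose by 0.41. In SRSF4, a gene that rose, SRSF4_E009, SRSF4_E010 and SRSF4_E011 fell by 0.57, 0.59 and 0.72, and SRSF4_E006 changed by -0.47 (SE 0.18, adjusted p = 0.199) in limma. The call of SRSF4_E009 was lost without any 1 library, that of SRSF4_E010 without any but 6 h library b, and that of SRSF4_E011 without any 2 h library or 6 h library c (adjusted p of 0.0540 to 0.175). In all 25 of 99 SR bins passed, 12 higher and 13 lower, beside 3.86% of 131537 (1.24% higher, 2.62% lower), and of the 14 decay-only exons 5 rose and 3 fell.

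In the OSMI-2 experiment SRSF2_E004 (1.73), SRSF5_E006 (1.25), SRSF6_E003 (1.15), SRSF7_E007 (1.08) and SRSF7_E008 (0.94) rose from 2 h to 6 h in DMSO as well. There the SRSF4 exons rose too, by 1.53, 1.68, 1.80 and 1.62, while SRSF3_E004 changed by 0.31 (SE 0.20, adjusted p = 0.429) in limma. In all 37 of 97 SR bins passed, 25 higher and 12 lower, beside 6.41% of 119089 (4.11% higher, 2.30% lower), and 11 of the 12 decay-only exons tested rose. The 97 bins include SRSF4_E008, which reached the mean count needed through the DMSO 6 h libraries. Without DMSO 6 h library a 22 bins passed, beside 2.56% of all exon bins, and of the 11 decay-only exons SRSF4_E009 and SRSF4_E010 did not (adjusted p = 0.0557 and 0.0857 in limma). The values were then 1.53 for SRSF2_E004, 1.23 for SRSF5_E006, 1.05 for SRSF6_E003, 0.91 and 0.85 for the SRSF7 exons and 1.45 to 1.66 for the SRSF4 exons. Per base, SRSF6_E003 had 0.295 times the counts of the whole gene in DMSO at 2 h and 0.662 times at 6 h in the OSMI-2 experiment, and 0.595 and 0.795 times in the TMG experiment. SRSF3_E004 had 0.0250 to 0.0665 times the counts per base of its gene over the 8 groups. Because counts did not scale with bin length, these ratios are not shares of transcripts.

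**Figure D5:**
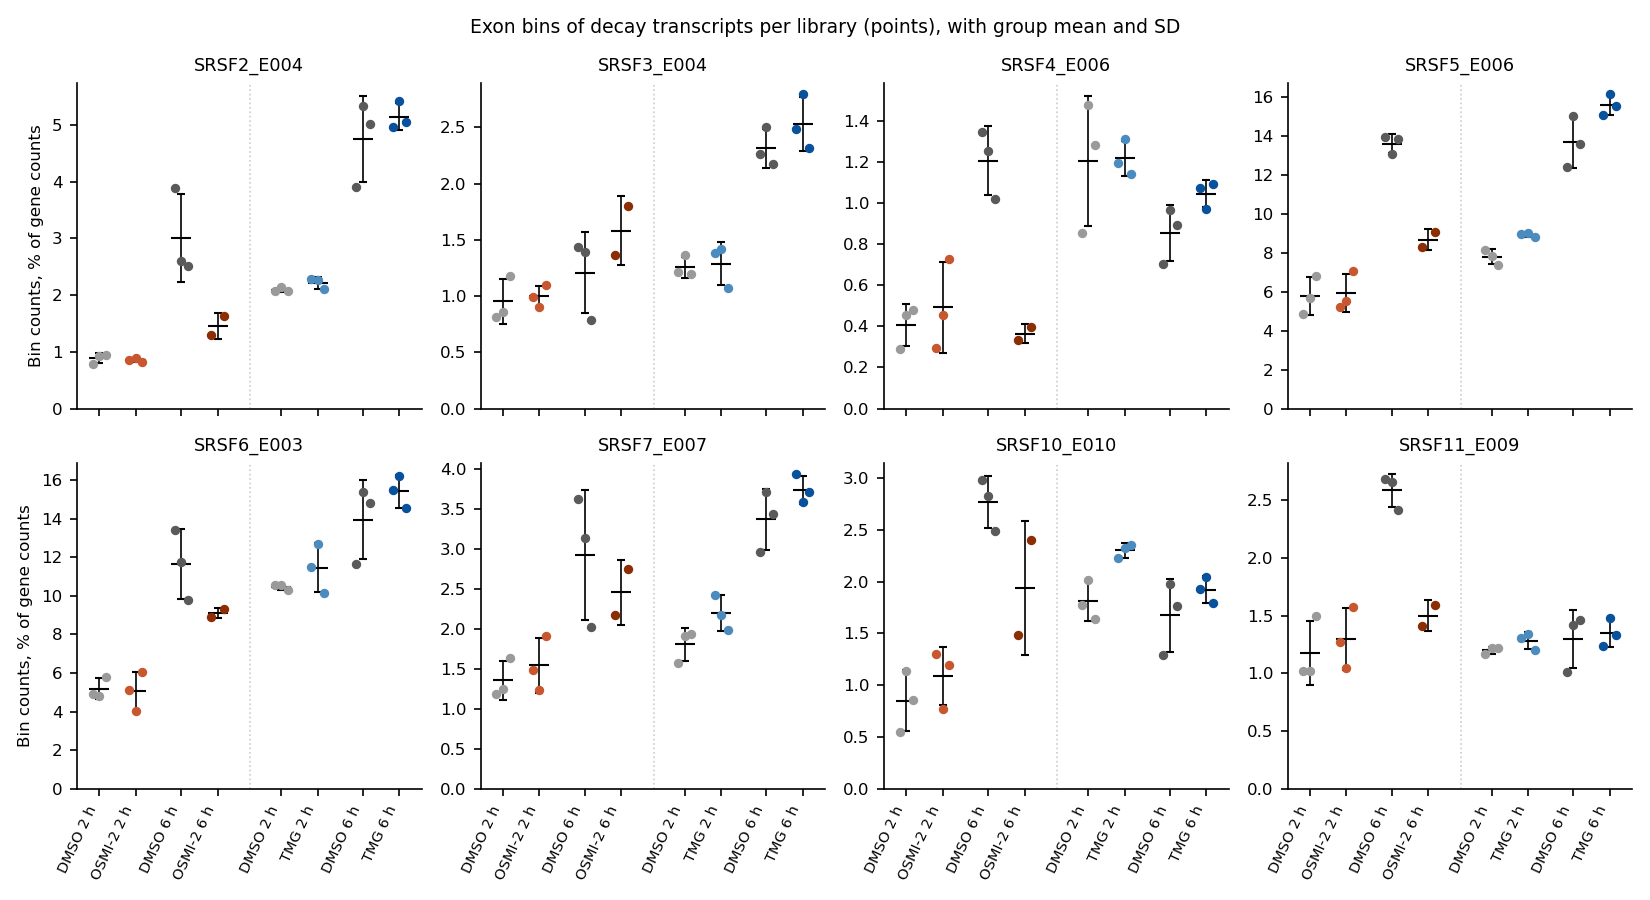
Counts of 8 exon bins found in decay transcripts as a percent of the counts of their gene (vertical axis), per library (points), with group mean and SD. SRSF5_E006 has means of 5.78% and 13.6% in DMSO at 2 h and 6 h of the OSMI-2 experiment and 7.80% and 13.7% in the TMG experiment.

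Genes that act with or on SR proteins were read beside them. Over all genes 0% and 4.94% passed with OSMI-2 at 2 h and 6 h and 7.91% and 6.03% with TMG at the same times. Of 9 SR kinases 0 passed with OSMI-2 at either time in edgeR, and 1 of the 8 tested rose with TMG at 2 h, CLK2 (0.21, SE 0.05, adjusted p = 0.0133). Of 23 genes for SR-like and RS-domain factors 0 passed with OSMI-2 at either time, 3 rose with TMG at 2 h (RSRC2, SRRM2 and PNN, by 0.22, 0.20 and 0.16) and 2 at 6 h (SREK1 and RSRC2, by 0.25 and 0.23). Of 10 nonsense-mediated decay factors 0 passed with OSMI-2 at either time and 1, the kinase SMG1, rose with TMG at 2 h (0.22, SE 0.06, adjusted p = 0.0240 in edgeR). Of 24 genes of the HNRNP list, whose proteins often oppose SR proteins, HNRNPD rose by 1.09 and HNRNPC fell by 1.53 with OSMI-2 at 6 h, and HNRNPDL and HNRNPD fell by 0.28 and 0.21 with TMG at 6 h. Relative to their genes, 7 of 8 detained introns in SR kinase genes, 18 of 20 in SR-like genes, 9 of 9 in decay factor genes and 8 of 8 in HNRNP genes fell after 6 h of OSMI-2 in limma, beside 89.1% of all introns. Their medians were -1.16, -2.19, -2.17 and -1.78, beside -1.63 over all introns and -1.11 for the 3 SRSF introns.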

How the data were processed

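Polyadenylated RNA of HEK293T cells was sequenced, and reads were aligned with STAR to hg19 per the submitters' processing notes. The authors deposited raw counts per bin in 4 tables, 1 per drug and time, with, per the file headers, their log2 fold change of bin usage and the adjusted p-value of its test. The counter, its annotation and its use of strand are not given in the sources used here. The 10 SR genes, the gene lists and the tests were chosen with earlier results of these data known. Every SR gene, detained intron and alternatively used exon that passed at least once was to be named, with at most 3 rises and 3 falls of each other list. Other exon bins given with values were chosen after their values were seen.

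Gene counts were the sum of a gene's bins outside detained introns. Genes and detained introns were tested with edgeR 4.0.16 (R 4.3.3; quasi-likelihood, TMM factors over both, filterByExpr). Bins relative to the gene were tested with limma 3.58.1 on log2((bin + 1)/(gene + 1)), with eBayes trended on the log2 mean bin count and mean counts of bin and gene of at least 10. Each treatment was fitted with its own controls, p-values were two-sided and adjusted by Benjamini-Hochberg over all features tested, and an adjusted p under 0.05 counts as passed. The comparisons of exon bins between the DMSO groups and between the effects, and the effect at 6 h minus that at 2 h, were added after the data were seen. The edgeR test of genes and the limma test of exon bins were tried on counts simulated for the groups of TMG at 2 h. No simulation was made for the OSMI-2 groups, for DESeq2 or for the differences between effects. Bins were placed on GENCODE 29 (GRCh38) by shared exon spacing, and positions are hg19, as in the tables. The 22 pairs of libraries within groups differed beyond sampling noise (chi-square per degree of freedom 4.33 to 304). Totals were 39465746 to 100161560 counts, which limits precision for bins of a few counts. Of the 24 samples in the labels 1 OSMI-2 sample of 6 h was not used here, nor were 96 files of index reads, and 0 count columns were left unused. Alternatives were DESeq2 1.42.0, other scaling, filters and pseudocounts, a fit of all 23 libraries, the authors' test, each library left out in turn and, chosen after the data were seen, the GC slope as a covariate.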

Additional observations from a re-analysis of the deposited data

Results flagged for a closer look

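These results stood out because the effects of the drugs, or of OSMI-2 at its 2 times, differed by the test of the difference itself (limma, log2 scale, relative to the gene, adjusted p under 0.05). At 6 h the OSMI-2 effect was below the TMG effect in the detained introns SRSF11_E005 (-1.40) and SRSF11_E007 (-1.54). It was also below it in the SRSF4 bins SRSF4_E006 (-1.99), SRSF4_E008 (-2.52), SRSF4_E009 (-1.99), SRSF4_E010 (-2.11) and SRSF4_E011 (-1.77). The same held in SRSF10 for SRSF10_E001 (-0.29), SRSF10_E002 (-1.13), SRSF10_E005 (-2.11) and SRSF10_E009 (-1.85); SRSF10_E005 had 1 to 22 counts in the OSMI-2 experiment. It held as well for SRSF11_E006 (-0.98), SRSF11_E009 (-0.85), SRSF2_E004 (-1.14) and SRSF5_E006 (-0.84). The OSMI-2 effect was above the TMG effect in the coding bins SRSF10_E012 (0.53) and SRSF5_E005 (0.34). The OSMI-2 effect at 6 h was below that at 2 h in SRSF11_E005 (-1.28), SRSF11_E007 (-1.42) and SRSF4_E008 (-3.70). In the OSMI-2 experiment SRSF4_E008 had 31 to 36 counts in the DMSO 6 h libraries and 1 to 14 in the others. Of the 15 exon bins that differed between the drugs, 7 held without any 1 library (the 5 of SRSF4, SRSF10_E002 and SRSF5_E006), as did both introns, and the other 8 were each lost without at least 1. All of these rest on the DMSO 6 h libraries of the OSMI-2 experiment, which had the highest share of detained introns, and the part of that share was not tested.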

How the results depend on the processing

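Of 123 called values of SR genes and bins, 63 were called under each alternative run and 60 were lost under at least 1; 62 of 494 uncalled values passed under at least 1. No paired analysis was possible because the count columns carry letters and not the replicate numbers of the titles. SR genes called with OSMI-2 at 6 h numbered 1 in edgeR, beside 617 of all 12484 genes tested. They numbered 0 with DESeq2 (1184 of 13163 over all genes) or median-of-ratios factors (943 of 12493). They numbered 3 in the fit of all 23 libraries (5981 of 12716 over all genes) and 4 with the GC covariate (5324 of 12484). With TMG at 2 h, 1 gene, 2 intron counts, 1 intron relative to its gene and 1 exon bin passed, and with all 23 libraries fitted together or the GC covariate each of these counts was 0. Scaling on introns alone left 1 intron call for OSMI-2 at 6 h, now higher (770 of 4691 over all introns), and 0 for TMG at 2 h (77 of 4128). It left 1 for DMSO 6 h against 2 h in the OSMI-2 experiment, now lower (1214 of 4373 over all introns). For TMG at 2 h the intron calls relative to the gene were 2 at a mean count of at least 30 (385 of 2195 over all introns). They were 0 in the authors' deposited table (152 of 4037), which called 8 exon bins (186 of 132895 over all exon bins). DMSO 6 h against 2 h in the OSMI-2 experiment gave 3 genes with DESeq2 (3189 of 13171 over all genes) and 2 with median-of-ratios factors (2984 of 12341). In the TMG experiment it gave 0 introns with DESeq2 (411 of 4755 over all introns). The difference between the drugs at 6 h gave 3 genes with DESeq2 (5948 of 13186 over all genes) and 2 with median-of-ratios factors (5426 of 12567). The cause was not tested.

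Leaving out 1 library at a time gave 0 to 3 genes, 2 to 3 intron counts and 9 to 16 exon bins for OSMI-2 at 6 h, and 0 to 1 genes, 1 to 2 intron counts, 0 to 2 introns relative to the gene and 0 to 3 exon bins for TMG at 2 h. For TMG at 6 h it gave 0 to 1 introns by either measure. For DMSO 6 h against 2 h it gave 0 to 4 genes, 2 to 3 intron counts and 22 to 36 exon bins in the OSMI-2 experiment, and 6 to 8 genes, 0 to 2 intron counts, 1 to 2 introns relative to the gene and 16 to 40 exon bins in the TMG experiment. For the difference between the drugs at 6 h it gave 0 to 5 genes, 2 to 3 introns and 8 to 19 exon bins, and for OSMI-2 at 6 h minus 2 h 0 to 3 exon bins. The share over all features moved as well. Without DMSO 6 h library a it went from 4.94% to 42.4% of genes for OSMI-2 at 6 h and from 19.9% to 75.0% for the difference between the drugs. Of exon bins it went from 2.28% to 1.97% and from 1.29% to 1.47% in these comparisons. For DMSO 6 h against 2 h in the OSMI-2 experiment it went from 6.41% to 2.56% of exon bins. The shares without each other library are not given here, so these ranges are not read as particular to SR genes.

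A value that passed, with or without the change of setting, reversed its direction in 6 cases; the sign changes of uncalled genes with other scaling stand with the results. Leaving out 1 library gave -0.21 to 0.46 for SRSF10 and -0.89 to 0.037 for SRSF7_E006 counts with OSMI-2 at 6 h, and -0.22 to 0.86 for SRSF10 and -0.72 to 0.40 for SRSF11 in the drug difference at 6 h, in each case highest without DMSO 6 h library a. With scaling on introns alone SRSF7_E006 counts changed by 0.87 with OSMI-2 at 6 h and by -1.28 in its controls, and SRSF11_E005 counts by -0.42 in the TMG controls. Fits with 1 library left in a group assume that it varies like the others. Low counts limit bins such as SRSF4_E008.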
